A study of Homo sapiens with 10 samples.

Results

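The 10 libraries of this series were split in 2 by their level of COL1A1, which encodes the alpha 1 chain of type I collagen. The split was chosen by a measured value: a library with COL1A1 at 100 TPM (a transcript level corrected for length and library depth) or more was placed on the COL1A1-high side and any other on the COL1A1-low side. Of the 10 libraries, 5 were COL1A1-high (nociceptor 1, 2 and 3, mechanoreceptor 3 and proprioceptor 2) and 5 were COL1A1-low (nociceptor 4, mechanoreceptor 1 and 2, proprioceptor 1 and 3). Values of the 5 libraries of a side are given below in this order. The COL1A1 level was 392, 506, 1984, 366 and 536 TPM on the high side and 17.0, 3.26, 2.88, 1.77 and 7.81 TPM on the low side. The library just inside the threshold was mechanoreceptor 3 at 366 TPM and the one just outside it was nociceptor 4 at 17.0 TPM. These values made the split and are given with no test.

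Every library came from cultures of the established human embryonic stem cell line RUES2, carrying an Avil:tdT reporter, named for a gene of sensory neurons. The cultures had been taken through 1 of 3 sensory differentiation schemes, labelled nociceptor (4 libraries), mechanoreceptor (3) and proprioceptor (3), and were collected at day 60 in vitro. All 10 therefore share the line, the reporter and the day, and the agents of each scheme are not given in the sources used here. The labels call the libraries of a scheme biological replicates but do not say whether cells were sorted by the reporter or came from separate differentiations, so p-values reflect only how far these libraries spread, part of which may be technical.

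Sensory neurons and the glia that wrap their axons and cell bodies both descend from the neural crest, as do connective tissue cells of the head and of peripheral nerves. Type I collagen is secreted by fibroblasts and other mesenchymal cells, and cells of the Schwann lineage also make collagens and basement membrane. Neurons and dividing support cells are known to use different splice forms of many genes of membrane traffic, the cytoskeleton and metabolism.

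The working name of the split was mesenchyme-rich against neuron-rich cultures, and the defining markers went only partly with it. On the high side TWIST1 reached at most 0.396 TPM and PDGFRA at most 2.57 TPM, while DCN spanned 2.40 to 8.80 TPM there and 0.566 to 5.56 TPM on the low side. LUM spanned 2.20 to 17.5 TPM on the high side and at most 0.644 TPM on the low side. Markers of Schwann and satellite glia stood far above those levels on the high side: S100B spanned 958 to 2295 TPM and CDH19 130 to 519 TPM. The sides are therefore called COL1A1-high and COL1A1-low and no cell type is given to them. Neuronal transcripts were abundant on both sides, with STMN2 at 1607 to 3088 TPM on the high side and 3558 to 6269 TPM on the low side. Other neuron markers overlapped: TUBB3 was at 526 to 1007 TPM against 720 to 1549 TPM, and ELAVL4 at 15.9 to 64.1 TPM against 40.8 to 210 TPM. SNAP25 went the other way in its median, 430 TPM (228 to 545) on the high side and 291 TPM (253 to 447) on the low side. Some members of lists of other cell types also varied with the split, while some of their defining markers were at or near 0. These lists had few tested genes, and among all tested genes 14.0% were called higher and 4.26% lower. Of 4 tested endothelial genes 3 were higher, among them the VEGF receptor FLT1 at 7.94 to 33.1 TPM against at most 1.62 TPM. The summed TPM of the 10 endothelial genes was 42.6 to 96.0 on the high side and 4.58 to 16.8 on the low side, while CDH5, the cadherin of endothelium, reached at most 0.0624 TPM in any library. Of 7 tested melanocyte genes 3 were higher, and the summed TPM of the 12 on the list was 70.1 to 153 against 7.58 to 77.4. PMEL, a pigment granule protein, was at 3.50 to 10.3 TPM against 0.986 to 25.7 TPM, and TYR, the enzyme of melanin synthesis, reached at most 0.122 TPM. Of 5 tested skeletal muscle genes 2 were lower and 0 higher, and the summed TPM of the 17 on the list was 5.78 to 11.5 against 12.04 to 21.3. TTN, the sarcomere protein titin, was at 0.409 to 1.01 TPM against 1.18 to 12.6 TPM, and MYOD1, the muscle determination factor, reached at most 0.0251 TPM. The part of these cell types in the results below was not tested. In bulk RNA, fewer cells of a type and less RNA per cell cannot be told apart.

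**Figure D1:**
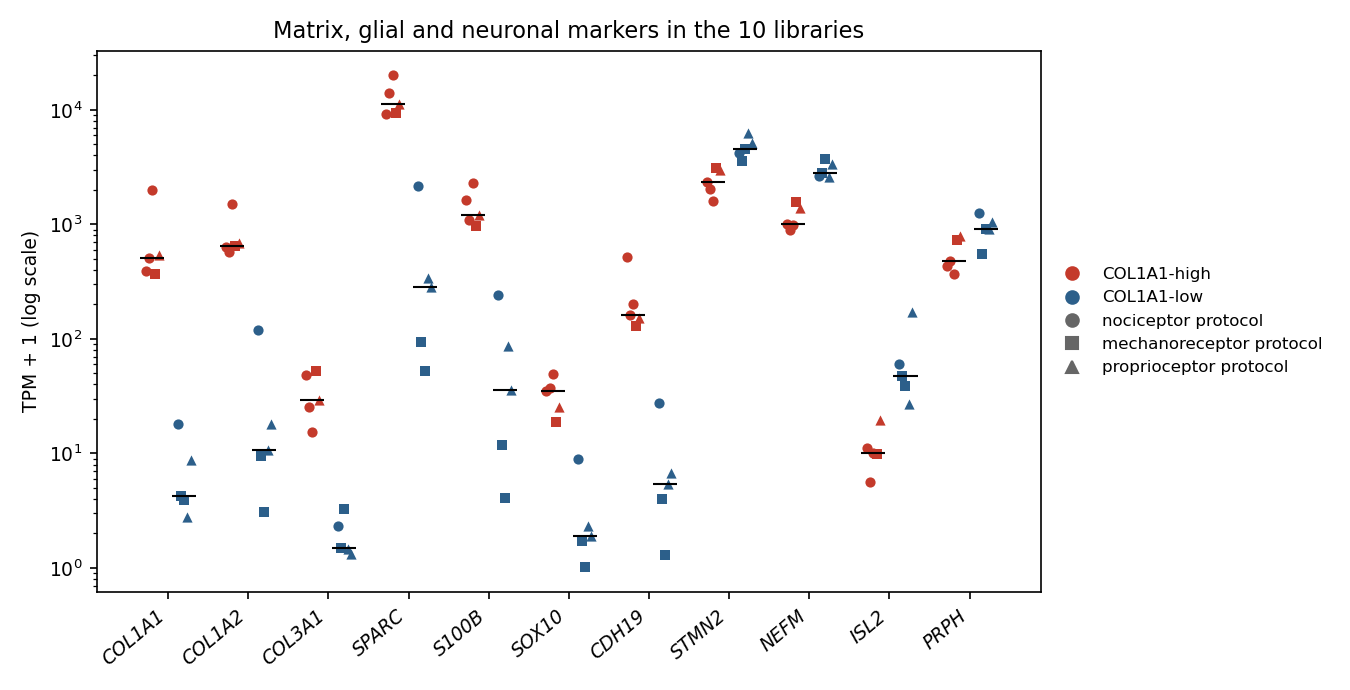
TPM + 1 on a log axis for matrix (COL1A1 to SPARC), glial (S100B to CDH19) and neuronal (STMN2 to PRPH) genes, with 1 point per library, colour for the side of the split, shape for the differentiation scheme and a bar for the median of 5 libraries. The glial genes separate the sides as the matrix genes do, and nociceptor 4 (blue circle) is the highest COL1A1-low library for COL1A1, S100B and CDH19, while the STMN2 and NEFM points of the high side lie below those of the low side.

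Depth spanned 27891186 to 44541262 counts assigned to named genes, and the side of the split was not tied to the differentiation scheme beyond what the 10 libraries can show (3 of 4 nociceptor libraries, 1 of 3 mechanoreceptor and 1 of 3 proprioceptor libraries were COL1A1-high, Fisher's exact test, two-sided p = 0.571). Genes at 1 TPM or more numbered 13774 ± 255 (SD, n = 5) on the high side and 13113 ± 627 (SD, n = 5) on the low side (exact permutation test, two-sided p = 0.0317, 0.159 after Benjamini-Hochberg adjustment over 5 quality measures). The other 4 measures had adjusted p of 0.516 or more, which does not show that they were equal. No library pair looked like a repeat deposit of the same library, since even the closest pair of one side had a chi-square of 32.4 per degree of freedom over genes. The TMM scaling factor, which corrects library sizes for composition, was 0.788 in proprioceptor 1 and 0.924 to 1.09 in the other libraries.

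Across 15508 genes tested, 2173 were higher on the COL1A1-high side (14.0% of those tested) and 660 were lower (4.26%), by edgeR's quasi-likelihood test at an adjusted p under 0.05. Those shares are the background for every list count given here. The libraries were divided on one of their own measured values, so these calls list genes that vary with the split and not the effect of a treatment. In TPM, 1753 genes had every high library above every low one (11.3%) and 445 had every high library below every low one (2.87%). Whether the difference itself varied between schemes could not be decided, since in each scheme 1 of the sides held only 1 library. The balance of higher and lower calls depended on the scaling: with library sizes set by the summed counts of a pan-neuronal list, 4089 genes were higher and 136 lower, and the median log2 fold change of all tested genes moved from -0.02 to 0.64. The count of lower genes was 421 without nociceptor 2 and 406 without nociceptor 3.

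**Figure D2:**
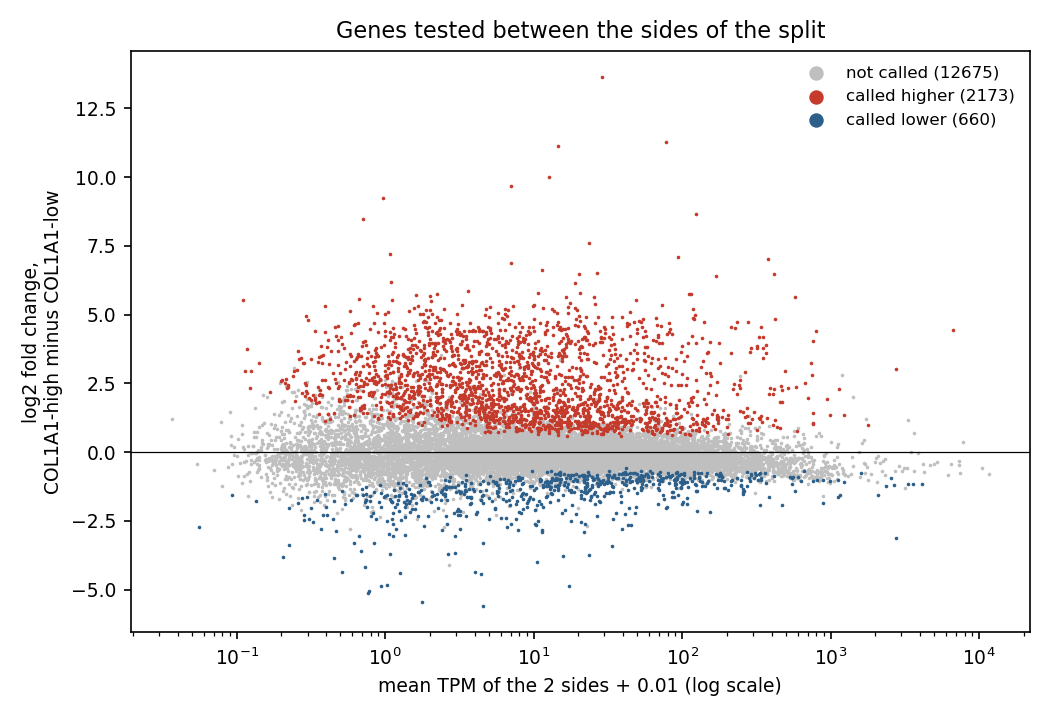
Each point is 1 of the 15508 tested genes, at its mean TPM over the 2 sides (log axis) and its log2 fold change between COL1A1-high and COL1A1-low libraries. The 2173 genes called higher (red) reach larger fold changes than the 660 called lower (blue).

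Within a side the libraries were not alike. Nociceptor 4 was the highest of the 5 low libraries for 1164 of the 2173 genes called higher, which is 53.6% of them, against 24.9% of all tested genes. On the high side nociceptor 3 was the highest library for 50.2% of the same genes, against 17.9% of all tested genes, whereas mechanoreceptor 3 and proprioceptor 2 were the highest for 4.74% and 6.77%. For the genes called lower the order turned: proprioceptor 2 and mechanoreceptor 3 were the highest of the high side for 44.2% and 29.7% of them. Without nociceptor 4 the counts were 2147 higher and 616 lower.

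Genes of the matrix and of mesenchyme are known to follow COL1A1, so they describe the split and test nothing. Among fibrillar collagens and their processing enzymes, 19 of 25 tested members had every high library above every low one, against the 11.3% of all genes given above, and the median log2 fold change was 3.65 against -0.02 for all tested genes. COL1A2, the partner chain of COL1A1, was at 636, 575, 1510, 642 and 691 TPM on the high side and 119, 8.48, 2.05, 9.64 and 17.1 TPM on the low side. SPARC, a collagen-binding matricellular protein, was the most abundant member of its list, at 9168 to 19999 TPM on the high side and 2141, 93.4, 51.5, 339 and 282 TPM on the low side. For both genes nociceptor 4 stood between the other low libraries and the high side. Of basement membrane genes, 13 of 15 tested members were apart in the same way, with a median of 4.12. COL4A2, a chain of the type IV collagen of basement membranes, was at 82.8 to 278 TPM against 2.70 to 23.9 TPM. Of 17 tested mesenchyme transcription factors and receptors, 12 were apart, but most were at low levels: FOXF1 spanned 0.295 to 3.93 TPM on the high side. THY1, the most abundant of that list and also a neuronal surface protein, overlapped between the sides at 400 to 854 TPM and 432 to 841 TPM.

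Genes of Schwann and satellite glia went with the split. Of 27 tested members 15 were higher and 0 lower by edgeR, and the median log2 fold change was 2.20. MAG, an adhesion protein of the innermost myelin wrap, was at 7.89, 87.0, 91.8, 35.2 and 39.8 TPM against 3.88 TPM in nociceptor 4 and at most 0.112 TPM in the other low libraries. CDH19, a cadherin of Schwann precursors, was at 519, 162, 203, 130 and 152 TPM on the high side and 26.6, 2.98, 0.301, 4.36 and 5.68 TPM on the low side, and the groups did not overlap. Its log2 fold change was 4.83 ± 0.97 (SE, edgeR adjusted p = 0.00342) and that of ERBB3, the glial receptor of neuregulin, 4.09 ± 0.63 (SE, edgeR adjusted p = 0.00077). GAP43, shared by growing axons and immature Schwann cells, was below every low library on the high side, at 777 to 1277 TPM against 1345 to 1968 TPM, and did not pass the test (edgeR adjusted p = 0.0761), though it passed with DESeq2 (adjusted p = 0.0359).

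Transcription factors of the neural crest were among the lists with the largest median, 3.58, with 11 of 15 tested members higher and 0 lower; SNAI2 and SOX9 of this list also belong to lists that describe the split. SOX10, which specifies crest and its glia, was at 34.2, 35.9, 48.2, 17.7 and 24.6 TPM on the high side and 7.91, 0.732, 0.0136, 1.33 and 0.898 TPM on the low side (log2 fold change 4.11 ± 0.90, SE, edgeR adjusted p = 0.00601). FOXD3, which keeps crest cells undifferentiated, was at 10.7 to 30.9 TPM against 3.47 TPM in nociceptor 4 and at most 0.407 TPM in the other low libraries. DLX1, a homeobox factor, was at 5.70 to 17.4 TPM against 0.0630 to 0.592 TPM. EDNRB, the endothelin receptor of crest and melanocyte precursors, was at 21.0 to 135 TPM against 0.0533 to 10.6 TPM. All 4 had every high library above every low one.

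Receptors for the matrix and enzymes that turn it over were also higher. Such genes can follow COL1A1 as the matrix genes do, so their calls are not independent of the split. Of 24 tested integrins and other matrix receptors 18 were higher and 0 lower (median 2.53), and of 26 tested proteases and inhibitors 14 were higher and 0 lower (median 1.80). ITGB8, an integrin subunit that activates latent TGF-beta, was at 101, 29.8, 29.2, 17.8 and 21.8 TPM on the high side and 1.66, 0.183, 0.275, 0.13 and 0.298 TPM on the low side (log2 fold change 6.48 ± 0.89, SE, edgeR adjusted p = 0.00045). ITGA5, the fibronectin receptor subunit, differed by 5.44 ± 0.71 (SE, edgeR adjusted p = 0.000339). ITGB1, the common beta subunit, had the highest TPM of the list, 420 to 1275 against 70.2 to 298. PLAT, a plasminogen activator, was at 295 to 687 TPM against 0.619 to 66.9 TPM. MMP14, a membrane-bound collagenase, was at 3.47 to 7.35 TPM against 0.0463 to 1.55 TPM. TIMP1, a metalloproteinase inhibitor, was the most abundant of the list at 987 to 2245 TPM against 98.1 to 351 TPM. All 6 genes were called higher and did not overlap between the sides.

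Targets and partners of YAP and TEAD, the factors that switch on growth genes when cells spread on a stiff substrate, moved with the split in 18 of 20 tested members: 17 were higher and 1 lower, and the median log2 fold change was 3.24. CCN2, a secreted matricellular protein and classical target, was at 112, 222, 71.4, 63.5 and 60.8 TPM on the high side and 20.4, 1.84, 1.91, 5.89 and 4.33 TPM on the low side, and the groups did not overlap. It and CCN1 also belong to the matrix list, which is known to follow COL1A1, so CCN2 is given with no test. AXL, a receptor kinase, was at 17.9 to 40.6 TPM against 0.484 to 2.33 TPM (4.72 ± 0.50, SE, edgeR adjusted p = 0.000251). TEAD2, a DNA-binding partner, was at 1.34 to 8.48 TPM against at most 0.337 TPM. The promoter of CCN2 is shown because it holds the letters read by TEAD factors, GGAATG on either strand (CATTCC on the other), 3 times in the 250 bases before its start (RefSeq, GRCh38.p14, chr6:131951373-131951622, minus strand). Capitals mark the matches, which are a description of the sequence and not sites shown to be bound.
CCN2 promoter: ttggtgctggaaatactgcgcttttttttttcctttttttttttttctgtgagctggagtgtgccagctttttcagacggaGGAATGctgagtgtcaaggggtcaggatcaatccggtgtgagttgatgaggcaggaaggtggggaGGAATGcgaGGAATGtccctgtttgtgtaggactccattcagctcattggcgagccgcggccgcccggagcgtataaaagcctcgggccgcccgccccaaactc
Of the 20 members of the list, 16 were matched by symbol to a promoter of the RefSeq table. Of these, 5 (31.2%) held the letters at least once in that window, against 11.9% of the 27305 promoters in the table. The list was drawn up as targets and partners of TEAD, so this share describes the list and not these libraries.

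Cell cycle genes were higher on the COL1A1-high side. Of 26 tested proliferation genes 21 were higher and 0 lower, with a median of 2.54. Of the same 26 genes, 12 had every high library above every low one, a larger share than the 11.3% of all tested genes. TOP2A, the topoisomerase of dividing cells, was at 19.0, 9.41, 11.4, 1.05 and 5.41 TPM on the high side and 0.743, 0.547, 0.178, 0.199 and 1.23 TPM on the low side (log2 fold change 4.55 ± 0.67, SE, edgeR adjusted p = 0.000613). Its groups overlapped, since mechanoreceptor 3 was below proprioceptor 3. CDK1, the mitotic kinase, was at 69.4, 33.6, 37.6, 4.98 and 14.1 TPM against 5.11, 0.761, 0.135, 0.213 and 2.46 TPM. In both genes the 3 nociceptor libraries were the highest and mechanoreceptor 3 was the lowest of the high side. PCNA, the sliding clamp of replication, was at 35.6 to 95.9 TPM against 17.0 to 28.1 TPM and was called higher (edgeR adjusted p = 0.00925), but not with the scheme as a covariate (adjusted p = 0.0856).

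**Figure D3:**
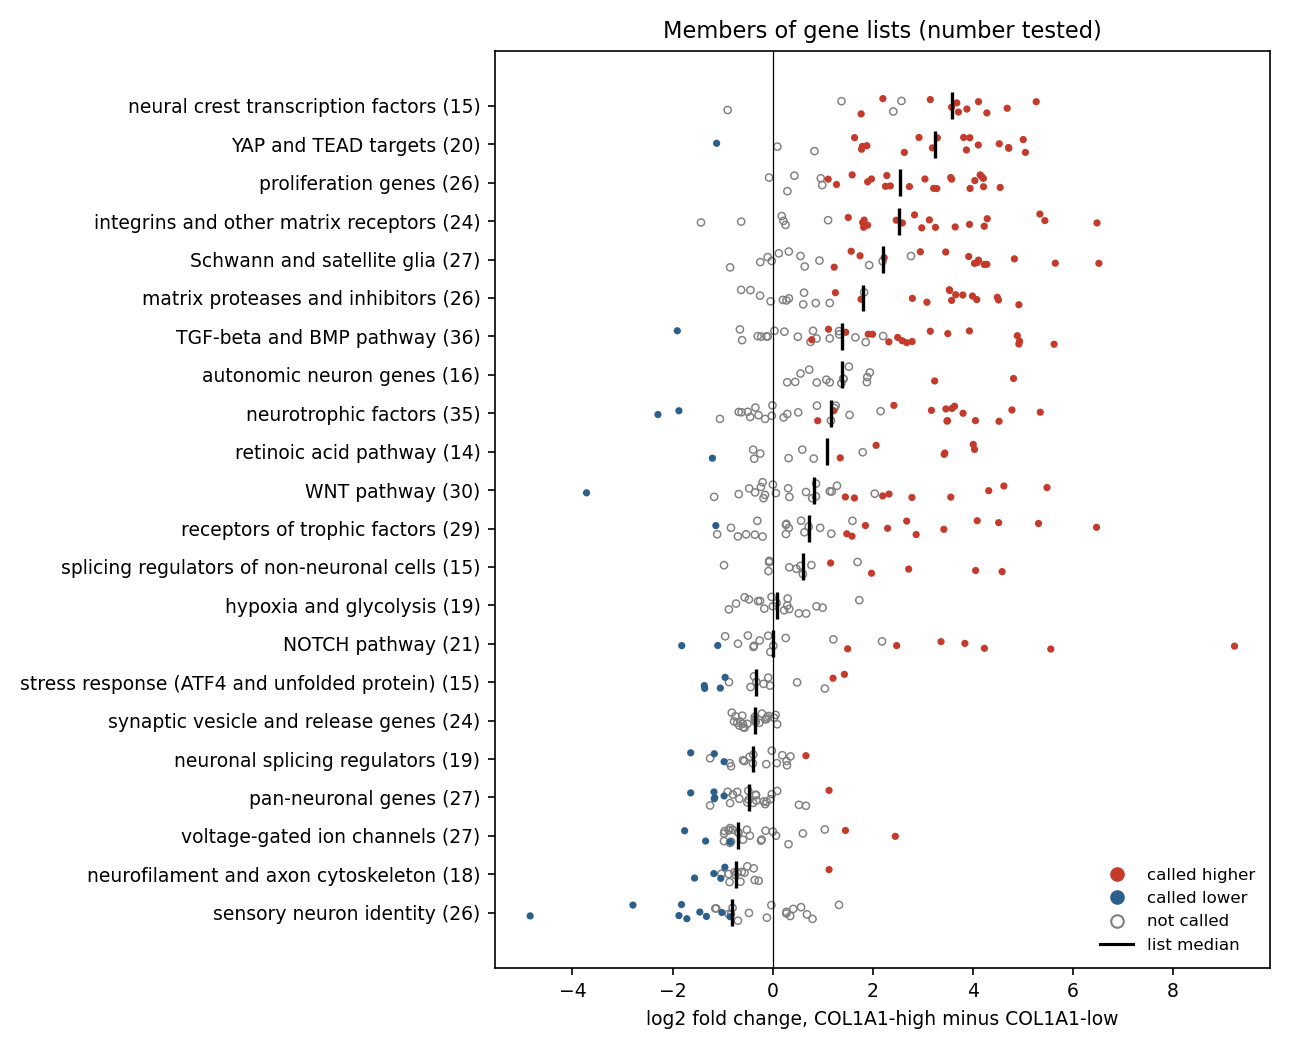
Log2 fold changes of the tested members of 22 gene lists, ordered by the list median (black bar); filled red and blue points are called higher and lower, open points are not called. Lists of crest factors, YAP and TEAD targets, cell cycle and matrix receptors lie to the right, and the neuronal lists other than autonomic genes have medians below 0. The medians of the pan-neuronal, synaptic and neuronal splicing lists turn positive when libraries are scaled to neuronal counts. Under that scaling the median of all tested genes is higher still, at 0.64.

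Ligands of the trophic families were partly higher. Of 35 tested neurotrophic factors 14 were higher and 2 lower (median 1.17), against 14.0% and 4.26% of all tested genes. ARTN, a ligand of the GDNF family, was at 35.4, 42.4, 62.7, 19.7 and 36.8 TPM on the high side and 4.34, 0.547, 0.331, 0.635 and 0.665 TPM on the low side (log2 fold change 4.78 ± 0.70, SE, edgeR adjusted p = 0.000598). LIF, a cytokine, was at 1.89 to 2.88 TPM against at most 0.377 TPM, and PDGFC, a growth factor of mesenchyme, at 2.63 to 9.54 TPM against 0.0675 to 0.426 TPM. GDNF, named after its values were seen, was at 1.62 to 6.08 TPM on the high side and at most 0.397 TPM on the low side and was called higher (edgeR adjusted p = 0.00121). MDK, a heparin-binding factor, had the highest TPM of the list and overlapped between the sides, at 389 to 1716 against 160 to 564 TPM (edgeR adjusted p = 0.239). It passed when libraries were scaled to neuronal counts (adjusted p = 0.0118).

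Of 29 tested receptors of trophic factors 11 were higher and 1 lower (median 0.72), against 14.0% and 4.26% of all tested genes. PDGFRA and PDGFRB, which are on this list, also belong to lists that describe the split. GFRA3, the co-receptor of artemin, was at 777, 201, 2558, 257 and 343 TPM on the high side and 25.8, 1.35, 0.202, 9.22 and 4.05 TPM on the low side. The log2 fold change of 6.47 ± 1.26 (SE, edgeR adjusted p = 0.00285) was the largest of the list. NGFR, the low-affinity neurotrophin receptor of neurons and Schwann cells, had the highest TPM and overlapped, at 305 to 833 TPM against 80.5 to 610 TPM (edgeR adjusted p = 0.61). Proprioceptor 1 was the low library at 80.5 TPM.

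Patterning pathways were mixed, and their counts stand against 14.0% higher and 4.26% lower among all tested genes. Of 36 tested TGF-beta and BMP genes 17 were higher and 1 lower (median 1.39). ID3, an inhibitor of bHLH factors induced by BMP, was at 20.9, 41.8, 83.6, 5.10 and 10.2 TPM against 1.53, 1.76, 0, 0.515 and 0 TPM, whereas its relative ID4 was the 1 lower member, at 275, 207, 119, 194 and 202 TPM against 600, 1375, 736, 365 and 627 TPM. The log2 fold change of ID3 was 5.62 ± 1.09 (SE, edgeR adjusted p = 0.00282) and that of ID4 -1.90 ± 0.29 (SE, edgeR adjusted p = 0.000711), and neither gene overlapped between the sides. TGFBR3, a TGF-beta co-receptor, was at 13.3 to 82.3 TPM against 0.283 to 3.70 TPM. Of 30 tested WNT genes 9 were higher and 1 lower (median 0.83), with the receptor FZD2 at 2.13 to 6.85 TPM against at most 0.365 TPM. Of 21 tested NOTCH genes 7 were higher and 2 lower (median 0.01). MFNG, a fringe enzyme that modifies NOTCH receptors, had no count in any low library and 2.10 ± 1.70 CPM (counts scaled to library depth, SD, n = 5) on the high side. Against a floor of 3 counts per library that is at least 19.5-fold higher. NOTCH1 was at 0.554 to 3.09 TPM against 0.248 TPM in nociceptor 4 and at most 0.0135 TPM in the other low libraries. Of 14 tested retinoic acid genes 6 were higher and 1 lower (median 1.09). The synthesis enzymes RDH10 and ALDH1A3 were at 16.5 to 44.2 TPM and 40.2 to 69.5 TPM on the high side and at 0.620 to 4.22 TPM and 0.138 to 9.29 TPM on the low side. RXRG, a retinoid receptor, was at 66.4 to 250 TPM against 6.01 to 21.1 TPM.

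Neuronal genes were lower by much smaller factors, and only a minority passed. Of 27 tested pan-neuronal genes 5 were lower and 1 higher, against 4.26% and 14.0% of all tested genes. The median log2 fold change was -0.48 and turned to 0.16 with scaling to neuronal counts, where that of all genes was 0.64. That scaling divides by the summed counts of this same list, so by construction it moves the list's own members, STMN2 and UCHL1 among them, toward 0. STMN2, which regulates microtubules in growing axons, was at 2322, 2031, 1607, 3088 and 2989 TPM on the high side and 4236, 3558, 4587, 6269 and 5162 TPM on the low side. Its log2 fold change was -1.16 ± 0.31 (SE, edgeR adjusted p = 0.0174), with adjusted p = 0.0755 with the scheme as a covariate and 0.209 under neuronal scaling. UCHL1, a ubiquitin hydrolase of neurons, was at 1429 to 2873 TPM against 3437 to 5686 TPM (edgeR adjusted p = 0.0320). That call was lost without nociceptor 1 or nociceptor 3 (highest adjusted p = 0.0756), with the scheme as a covariate (0.124) and under neuronal scaling (0.276). RBFOX3, the splicing factor known as NeuN, was at 6.01, 8.83, 11.4, 19.1 and 19.9 TPM against 51.2, 37.6, 39.0, 16.3 and 33.9 TPM and kept its call under both settings (edgeR adjusted p = 0.00144). Its groups overlapped because proprioceptor 1 was low. The 24 tested synaptic vesicle and release genes had a median of -0.35, turning to 0.17 under neuronal scaling. RAB3A, a vesicle GTPase, was at 27.2 to 109.5 TPM against 37.4 to 145 TPM (edgeR adjusted p = 0.152).

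Of 18 tested axon cytoskeleton genes 4 were lower and 1 higher (median -0.73, and -0.14 under neuronal scaling). NEFM, the medium neurofilament, was at 997, 885, 980, 1561 and 1376 TPM on the high side and 2651, 2794, 3714, 2586 and 3343 TPM on the low side (log2 fold change -1.56 ± 0.25, SE, edgeR adjusted p = 0.00088), and it stayed lower under neuronal scaling (adjusted p = 0.0126). NEFL, the light neurofilament, was at 1889 to 3228 TPM against 3465 to 7807 TPM (edgeR adjusted p = 0.0058, and 0.136 under neuronal scaling). MAP2, a dendritic microtubule protein, was the higher one at 25.3 to 93.9 TPM against 15.6 to 35.0 TPM (edgeR adjusted p = 0.0394). Its call was lost on leaving out any library other than nociceptor 2, with adjusted p of up to 0.107, and with limma on log2(TPM + 1) (0.0875).

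Of 26 tested sensory identity genes 9 were lower and 0 higher (median -0.82, and -0.17 under neuronal scaling). ISL2, a LIM homeobox factor, was at 10.2, 4.68, 9.05, 8.95 and 18.6 TPM on the high side and 59.6, 46.4, 37.8, 26.1 and 170 TPM on the low side. Its log2 fold change was -2.79 ± 0.46 (SE, edgeR adjusted p = 0.00103), and it passed under neuronal scaling (adjusted p = 0.00204). POU4F3, a BRN3 factor, was at no more than 0.111 TPM on the high side and at 4.52, 0.204, 4.02, 0.229 and 0.826 TPM on the low side (edgeR adjusted p = 0.00248, and 0.0661 with limma on log2(TPM + 1)). PRDM12, a regulator of nociceptor fate, was at 0.0609 to 0.634 TPM against 0.478 to 1.25 TPM. It passed narrowly (edgeR adjusted p = 0.043). The call was lost in 8 of the 10 fits that left out a library, those without nociceptor 4 and proprioceptor 2 being the exceptions, and it did not pass under neuronal scaling (adjusted p = 0.0731) or with no filter on low counts (0.0505). PRPH, the neurofilament of small sensory neurons, had the highest TPM of the list at 366 to 794 against 545 to 1260 (edgeR adjusted p = 0.0687, DESeq2 0.0281).

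Of 27 tested ion channels 2 were higher and 3 lower (median -0.68, and -0.09 under neuronal scaling), where 14.0% and 4.26% of all tested genes were, so the counts say little about channels as a group. KCND2, an A-type potassium channel, was at 2.31 to 6.67 TPM against 0.380 to 1.13 TPM (log2 fold change 2.45 ± 0.39, SE, edgeR adjusted p = 0.000884). KCNA1, an axonal potassium channel, was lower at 1.97 to 6.75 TPM against 7.06 to 32.7 TPM. SCN9A, the sodium channel of nociceptors, was at 64.2 to 136 TPM against 138 to 258 TPM (edgeR adjusted p = 0.0448). The SCN9A call was kept only without nociceptor 1, mechanoreceptor 3 or proprioceptor 1, and was lost with the scheme as a covariate (0.111) and under neuronal scaling (0.550). All 16 tested autonomic neuron genes had a positive log2 fold change (median 1.39), but the 2 that passed are a share near the 14.0% of all tested genes, so no change of the group is read from it. DBH, which makes noradrenaline, spread from 1.56 to 90.1 TPM on the high side and from 0.0933 to 38.9 TPM on the low side (edgeR adjusted p = 0.326).

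Outside the lists, genes of antigen presentation were among those with the largest fitted differences. HLA-DRA, the alpha chain of an MHC class II molecule, was at 129, 200, 411, 32.0 and 9.46 TPM on the high side and at most 0.302 TPM on the low side, where the 5 libraries held 8 counts in all against 21188. CD74, the class II invariant chain, was at 177, 259, 694, 84.9 and 20.3 TPM against 0.115 to 0.579 TPM (log2 fold change 8.66 ± 1.00, SE, edgeR adjusted p = 0.000252). In both genes the 3 nociceptor libraries were above mechanoreceptor 3 and proprioceptor 2. HLA-DRB5, HLA-DRB4, PGA4, PGA5 and KRTAP2-3 also met the naming rule, but each has near-identical copies among which estimated counts can be split, so their own levels are uncertain. Further genes of the pathway were looked up after these values were seen. CIITA, the class II activator, overlapped at 0.582 to 3.32 TPM against 0.434 to 1.57 TPM (edgeR adjusted p = 0.231). HLA-DMB, which loads class II peptides, was at 1.41 to 14.8 TPM against 0.0738 to 0.937 TPM (edgeR adjusted p = 0.00185). B2M, the light chain of class I, was at 5674, 5125, 6902, 3373 and 3709 TPM against 651, 674, 404, 600 and 446 TPM (log2 fold change 3.03 ± 0.37, SE, edgeR adjusted p = 0.000286). HLA-B, a class I heavy chain, was at 395 to 1280 TPM against 30.2 to 77.2 TPM, and HLA-C was called higher as well. Of 3 tested immune cell markers 1 was higher: CD68, a lysosomal protein of macrophages, was at 1.64 to 8.15 TPM against 0.527 to 3.28 TPM (edgeR adjusted p = 0.0239). PTPRC, which marks all leukocytes, was at 0.265 to 1.25 TPM against 0.161 to 1.06 TPM (edgeR adjusted p = 0.855). AIF1, a macrophage marker, was at 0 in every high library and reached 0.119 TPM on the low side. The summed TPM of the 10 genes of the immune list was 3.43 to 9.50 against 1.34 to 4.97, and the part of immune cells in these results was not tested.

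Other genes with large differences belonged to several cell functions. Genes of mesenchyme and fibroblasts among them can follow COL1A1 too, so they describe the split. PDPN, the membrane mucin podoplanin, was at 18.8, 64.5, 130, 9.14 and 12.7 TPM on the high side and 1.10, 0.0318, 0.138, 0.180 and 0.226 TPM on the low side (log2 fold change 7.60 ± 1.13, SE, edgeR adjusted p = 0.000612). ITM2A, a membrane protein of mesenchyme and chondrocytes, was at 43.9 to 512 TPM against 0.0254 to 5.33 TPM, and CD248, endosialin of pericytes and fibroblasts, at 1.98 to 91.4 TPM against 0.0818 to 0.383 TPM. CLDN4, a tight junction claudin, was at 17.0 to 65.4 TPM against 0.747 to 1.51 TPM, whereas CLDN6, a claudin of embryonic epithelia, was at 2.51 to 4.92 TPM against 10.8 to 102 TPM (log2 fold change -3.75 ± 0.52, SE, edgeR adjusted p = 0.000453). Of the other genes below every low library, TRIM29 was at 0.251 to 2.77 TPM against 3.43 to 73.0 TPM. PPP1R17, a phosphatase inhibitor of neurons, was at 10.8 to 12.9 TPM against 29.1 to 147 TPM. SLC9A9, an endosomal sodium-proton exchanger, was at 7.65 to 21.8 TPM against 39.1 to 100.2 TPM (log2 fold change -2.26 ± 0.25, SE, edgeR adjusted p = 0.000251). TMEM233 was at 2.98 to 8.58 TPM against 18.9 to 44.3 TPM, and LMO1, a LIM-only cofactor, at 1.18 to 18.6 TPM against 34.8 to 64.8 TPM. HSPA5, the chaperone of the endoplasmic reticulum, was at 922 to 1380 TPM against 210 to 610 TPM. Among the 15 tested stress response genes 4 were lower and 2 higher (median -0.32). That median turned to 0.32 under neuronal scaling, where the median of all tested genes was 0.64.

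**Figure D4:**
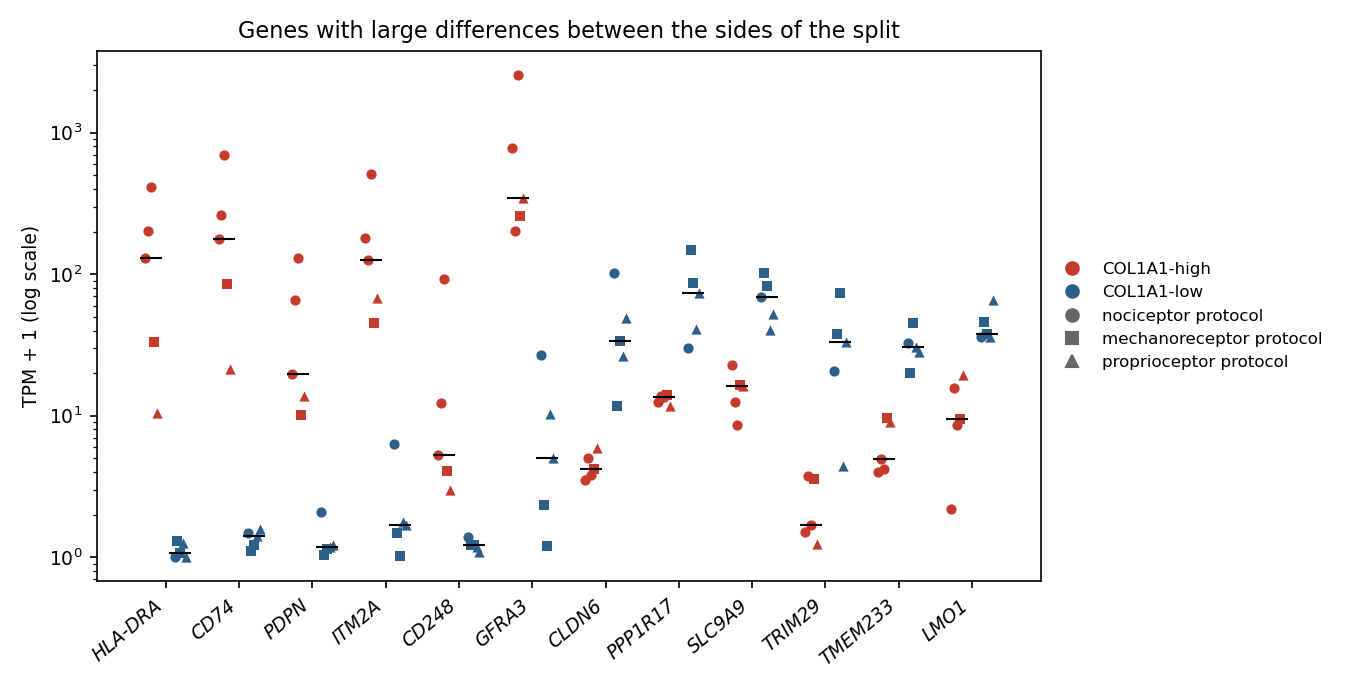
TPM + 1 on a log axis for genes with large differences, drawn as in the plot of markers. HLA-DRA to GFRA3 separate the sides upward, with nociceptor 3 the highest library, and CLDN6 to LMO1 separate them downward by smaller factors.

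Of 15 tested splicing regulators of non-neuronal cells 5 were higher and 0 lower (median 0.60), against 14.0% and 4.26% of all tested genes. QKI, a regulator of glial and muscle splicing, was at 212, 111, 170, 86.1 and 100.2 TPM on the high side and 19.4, 5.11, 6.08, 1.57 and 5.89 TPM on the low side (log2 fold change 4.58 ± 0.57, SE, edgeR adjusted p = 0.000286). PTBP1, which represses neuronal exons, was at 16.6, 30.3, 55.5, 22.8 and 29.1 TPM against 8.84, 4.90, 4.91, 1.76 and 5.51 TPM (log2 fold change 2.72 ± 0.41, SE, edgeR adjusted p = 0.000625). ZFP36L1, an RNA-binding decay factor, was at 10.9 to 30.9 TPM against 0.05 to 3.00 TPM, and ESRP1, an epithelial splicing factor, at 1.96 to 3.94 TPM against 0.214 to 0.942 TPM. Of 19 tested neuronal splicing regulators 3 were lower and 1 higher (median -0.39). Under neuronal scaling, whose list shares genes with this one, the median turned to 0.17, where that of all tested genes was 0.64. ELAVL2, a neuronal RNA-binding protein, was at 34.5 to 90.3 TPM against 52.2 to 187 TPM (edgeR adjusted p = 0.014, and 0.235 under neuronal scaling).

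Transcript usage is the share of a gene's counts held by each of its transcripts. Only transcripts matched by identifier to GENCODE v29 were counted, so unmatched forms are left out of these shares. Usage was tested in 10698 genes with 47703 transcripts. Of these genes 231 were called different between the sides (2.16%, edgeR diffSpliceDGE at an adjusted p under 0.05). On simulated data that test called more unchanged genes than its threshold allows, so some of the 231 may be false calls. A second test, limma on log2 transcript ratios, called 241 genes, of which 143 were shared. The count of 231 was 348 without nociceptor 4 and 128 with the scheme as a covariate. Of 94 tested genes known for neuronal splice forms, 11 were called, which is a larger share than the 2.16% of all genes, and the list was chosen for such forms. They were AP1S2, TPM4, PKM, DLG1, SORBS2, NTRK3, CLTA, CLTB, BIN1, EVI5L and PLEC. TPM4 lost its call on leaving out any library, with adjusted p up to 0.592, and NTRK3 in 8 of 10 such fits, those without proprioceptor 1 and 3 being the exceptions. PKM, SORBS2 and CLTA did not pass limma, and with the scheme as a covariate the calls of AP1S2, TPM4, DLG1, SORBS2, NTRK3 and CLTA were lost (adjusted p from 0.0801 to 0.251). With transcripts under 5% of their gene left out, BIN1 (adjusted p = 0.351) and NTRK3 (0.933) were lost.

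Alternative coding exons carried several of these differences, and 10 of them, picked after their values were seen, are shown because their inclusion separated the 5 high from the 5 low libraries. Their genes were picked by hand, so the direction of the 10 is not that of all such exons. Some exons not shown were included more on the high side, also without overlap. Mean inclusion was 65.8% against 3.12% for an exon of TFPI, 69.5% against 4.32% for EPS8L2 and 70.3% against 15.7% for MELTF. Positions are on GRCh38 and the exons and sequences are those of GENCODE v29. For the first 8, capitals mark the exon and lower case the 15 coding bases on either side.
GFRA1 exon: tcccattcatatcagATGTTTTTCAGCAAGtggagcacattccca
ERGIC3 exon: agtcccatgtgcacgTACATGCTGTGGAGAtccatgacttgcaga
BAK1 exon: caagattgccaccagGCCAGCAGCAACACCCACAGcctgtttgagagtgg
WDR35 exon: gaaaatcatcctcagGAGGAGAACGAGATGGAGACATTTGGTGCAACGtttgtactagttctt
APBA2 exon: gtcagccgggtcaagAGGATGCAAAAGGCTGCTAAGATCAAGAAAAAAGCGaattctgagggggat
CLTA exon: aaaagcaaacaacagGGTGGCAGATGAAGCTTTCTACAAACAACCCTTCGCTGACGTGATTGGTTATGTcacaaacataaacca
CLTB exon: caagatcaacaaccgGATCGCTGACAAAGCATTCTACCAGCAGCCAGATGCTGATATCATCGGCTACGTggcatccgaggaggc
BIN1 exon: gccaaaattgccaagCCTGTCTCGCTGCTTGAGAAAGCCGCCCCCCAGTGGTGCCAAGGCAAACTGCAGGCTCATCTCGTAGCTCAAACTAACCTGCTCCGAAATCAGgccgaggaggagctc
For PKM both exons of a mutually exclusive pair are printed without flanks, and capitals mark the positions at which the pair differ, 62 of 167.
PKM exon, lower: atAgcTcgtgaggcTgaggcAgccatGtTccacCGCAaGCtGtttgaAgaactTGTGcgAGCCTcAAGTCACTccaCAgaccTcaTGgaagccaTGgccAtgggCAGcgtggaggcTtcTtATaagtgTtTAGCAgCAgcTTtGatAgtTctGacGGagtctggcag
PKM exon, higher: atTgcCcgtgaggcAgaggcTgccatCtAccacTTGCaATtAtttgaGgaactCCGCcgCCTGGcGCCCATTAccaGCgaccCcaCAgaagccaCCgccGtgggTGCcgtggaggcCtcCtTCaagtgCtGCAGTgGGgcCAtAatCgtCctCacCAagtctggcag

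Inclusion is the share of counts of the transcripts that span an exon's position and contain it. PKM encodes pyruvate kinase, whose upstream exon of the pair gives the M1 form of adult muscle and brain and whose downstream exon gives the M2 form of dividing cells. The downstream exon (chr15:72202454-72202620, minus strand, 167 bases) was at 60.5, 79.6, 78.0, 51.7 and 57.7% on the high side and 37.6, 16.3, 20.1, 23.9 and 23.4% on the low side. The upstream exon (chr15:72203022-72203188, 167 bases) was at 37, 19.1, 20.1, 45.0 and 39.4% against 58.3, 74.0, 72.6, 69.6 and 69.7%. PKM as a gene was at 388 to 593 TPM against 232 to 553 TPM (edgeR adjusted p = 0.606). Its usage differed by diffSpliceDGE (adjusted p = 0.000131) but not by limma (adjusted p = 0.0595).

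The clathrin light chains CLTA and CLTB, subunits of the coat that buds vesicles, each have an insert known from neurons. The CLTB exon (chr5:176396479-176396532, minus strand, 54 bases) was included at 74.1, 64.2, 50.7, 88.0 and 85.7% on the high side and 96.5, 99.5, 99.2, 98.6 and 98.9% on the low side (edgeR usage adjusted p = 3.23e-06, limma 0.00942). The CLTA exon (chr9:36209267-36209320, plus strand, 54 bases) was included at 55.5, 42.0, 34.3, 66.1 and 59.2% against 75.9, 82.8, 85.0, 80.9 and 78.3%. CLTA usage passed by diffSpliceDGE (adjusted p = 0.00486) and not by limma (0.0959) or with the scheme as a covariate (0.251). BIN1 encodes a membrane-bending protein of endocytosis, and its exon (chr2:127068163-127068255, minus strand, 93 bases) was at 62.3, 57.0, 58.0, 84.3 and 83.2% against 92.2, 98.9, 98.1, 97.9 and 97.5% (edgeR usage adjusted p = 0.00449, limma 0.00112). In all 3 genes mechanoreceptor 3 and proprioceptor 2 were the high libraries nearest to the low side. The total levels of CLTA, CLTB and BIN1 overlapped between the sides and were not called.

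The other exons were shorter. The GFRA1 exon of 15 bases (chr10:116211631-116211645, minus strand) lies in the GDNF co-receptor and was included at 45.4, 11.4, 6.16, 39.4 and 43.6% on the high side and 92.9, 99.3, 100, 100 and 99.6% on the low side (edgeR usage adjusted p = 0.00842, limma 0.0132, and 0.0502 without proprioceptor 3). The ERGIC3 exon of 15 bases (chr20:35554372-35554386, plus strand), in a cargo protein of early secretion, was at 37.7, 32.8, 23.5, 54.3 and 52.3% against 85.6, 95.4, 96.7, 93.8 and 94.8% (edgeR usage adjusted p = 0.000152, limma 0.00615). The BAK1 exon of 20 bases (chr6:33574506-33574525, minus strand), in an effector of apoptosis, was at 25.8, 19.4, 16.2, 49.2 and 45.5% against 84.3, 91.5, 95.0, 83.6 and 90.3%. Its length is not a multiple of 3, so including it shifts the reading frame, whereas the exons of GFRA1, ERGIC3, WDR35, APBA2, CLTA, CLTB and BIN1 keep it. APBA2 encodes a synaptic adaptor that binds the amyloid precursor protein. The APBA2 exon of 36 bases (chr15:29094278-29094313, plus strand) was at 0, 5.48, 0, 26.7 and 0% against 86.1, 86.5, 93.1, 84.2 and 82.4%, with as few as 86 spanning counts in a high library. WDR35 encodes a subunit of the machinery that carries cargo along cilia. The WDR35 exon of 33 bases (chr2:19962295-19962327, minus strand) was at 23.4, 34.0, 56.9, 60.1 and 68.9% against 100, 100, 100, 100 and 99.2%. The usage of BAK1, APBA2 and WDR35 passed by both tests (limma adjusted p = 0.00413, 0.00288 and 0.000145).

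**Figure D5:**
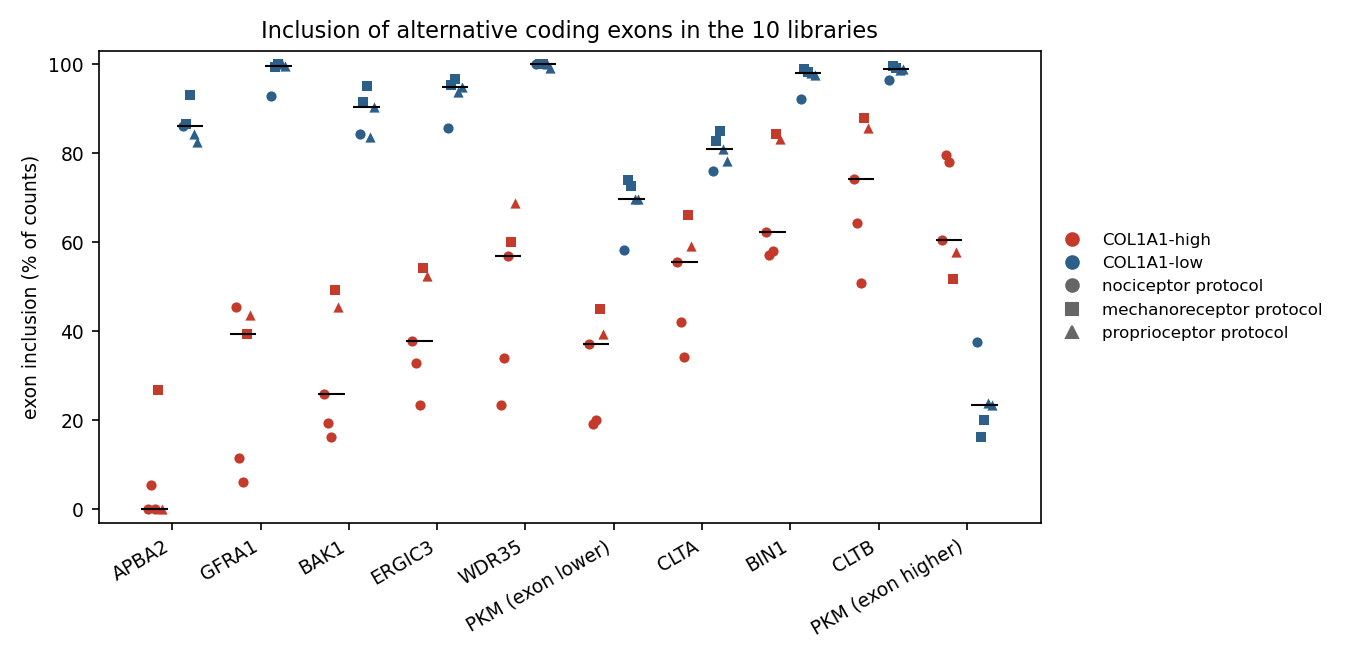
Inclusion of the 10 alternative coding exons in each library, as a percentage of the counts of transcripts spanning the exon, with bars for the median of 5 libraries. In 9 of them every high library (red) lies below every low one (blue), and in the downstream PKM exon every high library lies above. The exons were picked, and some exons of TFPI, EPS8L2 and MELTF, not drawn, were included more in every high library.

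Whole transcripts shifted as well. AP3B1 encodes a subunit of the coat that sorts cargo to lysosomes. Its transcript AP3B1-201 held 93.9% ± 2.8 (SD, n = 5) of the gene's matched counts on the high side and 0.6% ± 1.3 (SD, n = 5) on the low side. This difference passed (edgeR usage adjusted p = 1.2e-08, limma 0.000145), with as few as 87 matched counts of the gene in a library. TFPI encodes the inhibitor of tissue factor, and TFPI-211, a form with a retained intron, held 32.6% ± 16.9 (SD, n = 5) against 91.0% ± 6.1 (SD, n = 5). VGLL4 encodes a cofactor that competes with YAP for TEAD, and VGLL4-211 held 77.7% ± 9.4 (SD, n = 5) against 21.7% ± 10.0 (SD, n = 5). TNFRSF19-203, of a member of the TNF receptor family, held 13.9% ± 6.9 (SD, n = 5) against 78.8% ± 10.4 (SD, n = 5). AP1S2-201, of a clathrin adaptor subunit, held 83.0% ± 4.2 (SD, n = 5) against 24.5% ± 13.3 (SD, n = 5). The AP1S2 call was lost without nociceptor 2 or nociceptor 3 (adjusted p up to 0.0757) and with the scheme as a covariate (0.0936). The first 4 passed by both tests and with the scheme as a covariate. Whether these forms differed within any 1 cell type was not tested.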

How the data were processed

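Bulk RNA-seq libraries were made from Trizol-extracted RNA with the Clontech Ultra Low v4 kit, per the labels' protocols. The authors deposited estimated count tables and TPM tables per gene symbol and per transcript, which the submitters' processing notes tie to kallisto 0.50.1 and GRCh38.p14; the annotation release is not given in the sources used here. The deposited estimated counts are whole numbers, and how transcripts were summed to symbols is not given in the sources used here. The row with no gene name (0.733 to 1.66% of a library's counts) was kept out of library sizes and tests. Depth was 27891186 to 44541262 counts; at that depth counting error matters mainly for genes near 0.

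The libraries were divided by COL1A1 at 100 TPM. Gene counts were tested with edgeR 4.0.16 (R 4.3.3; filterByExpr, TMM, quasi-likelihood, all 10 libraries, no covariate), transcript usage with edgeR's diffSpliceDGE and, as an alternative, limma 3.58.1. Tested on simulated data, diffSpliceDGE called more unchanged genes than its threshold allows. The result of limma, as a second test, is therefore given beside most of the genes described. A few genes that met the naming rule below are not reported here. P-values were adjusted by Benjamini-Hochberg over all features tested. Alternatives were DESeq2 1.42.0, no low-count filter, the scheme as a covariate, a replicate block, limma on log2 TPM, scaling to pan-neuronal counts and leaving out each library. Transcript usage and exon inclusion were computed over transcripts matched by identifier to GENCODE v29 (162608 of 207133, 78.5%, holding 90.4 to 92.3% of counts).

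The genes named were, per list, the 3 largest changes among called genes (among all tested where fewer passed) and the highest TPM, and outside the lists the 10 largest called changes per direction whose sides did not overlap and whose higher side averaged 10 TPM or more; the 15 largest usage differences and the called genes of the neuronal splice list were also eligible. The sides, lists and tests were chosen with earlier results of these data known. GDNF, the class I, DM and CIITA genes and the exons printed were chosen after their values were seen, and all other named genes meet the rule or are cell type markers.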

Additional observations from a re-analysis of the deposited data

Results flagged for a closer look

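In 24 of 262 sets of 5 libraries checked, 1 library stood apart from the other 4 of its side by more than Dixon's 95% critical ratio, where chance gives about 1 in 20. Nociceptor 4 was the library apart on the COL1A1-low side in most of them, always toward the high side. On the log2(TPM + 1) scale it was at 2.29 for MAG, 2.16 for FOXD3, 3.53 for EDNRB, 1.41 for ITGB8, 1.76 for ITGA5, 2.42 for ARTN, 0.45 for FZD2, 0.32 for NOTCH1, 1.07 for PDPN and 0.23 for PGA5. Its mean log2 CPM over the mesenchyme transcription factor and receptor list was 1.07, against -0.33 to -0.02 in the other low libraries. Its exon inclusion was the lowest of the low side for BIN1 (92.2%), CLTB (96.5%), ERGIC3 (85.6%), GFRA1 (92.9%) and the upstream exon of the PKM pair (58.3%).

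Other libraries stood apart in single measures. Nociceptor 1 had 44541262 counts, against 31306941 to 35059647 in the other high libraries. Nociceptor 2 was at 2.63 mean log2 CPM over the cartilage, bone and tendon list. Nociceptor 3 was at 4.99 for ZFP36L1 and 2.82 for GDNF on the log2(TPM + 1) scale, both the highest of the high side. Proprioceptor 1 was at 6.35 for NGFR on that scale, against 8.73 to 9.25 in the other low libraries. Proprioceptor 3 was at 6.08 mean log2 CPM over the stress response list and at 99.2% inclusion of the WDR35 exon, where the other low libraries were at 100%. Mechanoreceptor 3 was at 26.7% inclusion of the APBA2 exon, against 0 to 5.48% in the other high libraries.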

How the results depend on the processing

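The count of genes lower on the COL1A1-high side, 660, was 1207 with DESeq2, 280 with the scheme as a covariate, 438 and 414 with limma on log2(TPM + 1) and log2(TPM + 0.1), and 136 with pan-neuronal scaling, which raised the count of higher genes to 4089. With the scheme as a covariate the total was 1873. Leaving out each library gave totals of 2145 to 2857, with 1739 to 2147 higher and 406 to 731 lower. Transcript usage differed in 666 genes with no filterByExpr filter, in 128 with the scheme as a covariate and in 174 to 348 on leaving out a library. The Fisher p of scheme against split spanned 0.357 to 1, and the difference in genes at 1 TPM or more spanned 399.3 to 821.05, with an adjusted p of 0.0397 without nociceptor 4 (exact permutation test, n = 4 and 5); the leave-outs of these 2 results and the TPM-based exon inclusion, which left all 10 exons as they were, were chosen after seeing the data. With a replicate block 325 genes were lower. Of 70 named genes called, 64 kept the call with that block, and STMN2, UCHL1, ELAVL2, MAP2, PRDM12 and SCN9A lost it (adjusted p 0.0609 to 0.210). Across the sides, deviations of same-numbered libraries correlated at -0.170 to 0.302 (6 pairs) and those of other pairs at -0.305 to 0.443 (19 pairs). Same-numbered libraries of the same side were not compared, so whether the numbers pair libraries was not settled. Of the same 70, 70 kept the call with DESeq2, 66 with the scheme as a covariate and 64 with pan-neuronal scaling, and none reversed in these fits. Depth limits genes near 0 on 1 side, whose fitted fold changes depend on the prior count.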
